A study of Mus musculus with 2 samples.

Results

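The Toll-like receptor genes Tlr1, Tlr2, Tlr3, Tlr4, Tlr6, Tlr7, Tlr8 and Tlr13, the co-receptor gene Cd14 and the adaptor gene Myd88 were followed in mouse fibroblasts. The 10 genes were chosen by name, as all probes annotated to them, and had 12 probes among the 25697 on the array, which names 16593 genes in all. One Illumina bead array held RNA of fibroblasts on gold nanoparticles exposed to an electromagnetic field (EMF+AuNPs), and another held RNA of control fibroblasts (Control). By its title, the series concerns the conversion of cells into dopamine neurons. Strain, age, field strength, exposure time and the number of cultures behind each RNA are not given in the sources used here. No array had AuNPs without the field or the field without AuNPs, so their effects cannot be told apart. With 1 array a condition, no value has a replicate error, there is no test between conditions, and precision is limited by the number of arrays.

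Toll-like receptors are membrane proteins that recognise molecules of microbes and of damaged cells. At the cell surface, TLR2 works as a dimer with TLR1 or TLR6 and binds bacterial lipopeptides, and TLR4 binds lipopolysaccharide with the help of CD14 and of the protein encoded by Ly96. In endosomes, TLR3 recognises double-stranded RNA, TLR7 and TLR8 single-stranded RNA, and mouse TLR13 bacterial ribosomal RNA. All of these receptors except TLR3 signal through MyD88, while TLR3 uses the adaptor encoded by Ticam1, and the pathways end in NF-kappaB and interferon regulatory factors. Macrophages carry most of the family, and fibroblasts carry some of it.

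RefSeq promoter sequences (GRCm38.p6) were used for 7 of the 10 genes. No window was used for Tlr4, Tlr7 or Cd14. The promoters of 5 genes are shown, each the 250 bases before the gene's RefSeq start, 5′ to 3′ on the gene's strand. They include the genes with the largest differences upwards (Myd88, Tlr2) and downwards (Tlr8, Tlr13) among those 7. The remaining one is Tlr3, which was not detected. Cd14 (0.24) differed by more than Tlr2 (0.20), and Tlr4 (-0.13) by more than Tlr13 (-0.10), but neither has a window here. Capitals mark matches on either strand to 4 motifs: the NF-kappaB site, the interferon-stimulated response element, the AP-1 site TGANTCA and the PU.1 core GAGGAAG.
Myd88 (chr9:119340019-119340268, minus strand): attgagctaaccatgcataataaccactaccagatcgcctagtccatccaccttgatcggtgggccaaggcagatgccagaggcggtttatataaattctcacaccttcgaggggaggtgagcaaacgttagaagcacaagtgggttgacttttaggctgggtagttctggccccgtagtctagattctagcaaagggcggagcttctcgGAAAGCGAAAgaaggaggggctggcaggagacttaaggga
Tlr2 (chr3:83841609-83841858, minus strand): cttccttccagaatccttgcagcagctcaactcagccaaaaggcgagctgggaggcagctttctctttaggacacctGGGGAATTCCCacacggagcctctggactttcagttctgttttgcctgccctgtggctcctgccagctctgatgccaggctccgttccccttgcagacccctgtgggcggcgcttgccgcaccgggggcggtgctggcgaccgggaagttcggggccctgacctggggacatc
Tlr8 (chrX:167264330-167264579, minus strand): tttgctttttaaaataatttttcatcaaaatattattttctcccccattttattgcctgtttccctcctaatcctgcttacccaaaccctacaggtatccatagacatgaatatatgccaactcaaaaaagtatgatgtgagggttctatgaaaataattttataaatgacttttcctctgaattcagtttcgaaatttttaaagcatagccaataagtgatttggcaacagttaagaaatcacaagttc
Tlr13 (chrX:106143025-106143274, plus strand): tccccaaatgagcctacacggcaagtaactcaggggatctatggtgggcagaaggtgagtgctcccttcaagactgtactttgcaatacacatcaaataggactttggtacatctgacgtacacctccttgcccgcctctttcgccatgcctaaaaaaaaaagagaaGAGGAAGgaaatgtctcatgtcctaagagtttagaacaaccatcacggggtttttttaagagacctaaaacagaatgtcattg
Tlr3 (chr8:45410381-45410630, minus strand): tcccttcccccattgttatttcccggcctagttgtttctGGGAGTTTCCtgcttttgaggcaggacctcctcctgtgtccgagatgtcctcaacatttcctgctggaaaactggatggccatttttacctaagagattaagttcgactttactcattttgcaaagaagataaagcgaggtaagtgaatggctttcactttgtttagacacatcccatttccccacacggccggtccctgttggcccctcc
The capitals are an interferon-stimulated response element in Myd88, 2 overlapping NF-kappaB sites in Tlr2, 1 PU.1 core in Tlr13 and 1 NF-kappaB site in Tlr3, and Tlr8 has no match in this window. Of 32851 mouse promoter windows of the same length, 7.25% hold the NF-kappaB site, 2.98% the response element, 6.75% the AP-1 site and 10.6% the PU.1 core. A match describes letters and does not show that a factor binds there. Tlr1 and Tlr6, each with 2 start sites in the table, are next to each other among protein-coding genes of chromosome 5, as are Tlr7 and Tlr8 on chromosome X. Of these, the windows of Tlr6 hold 2 overlapping response elements and those of Tlr1 hold 1 PU.1 core.

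Of the 10 genes, 9 were detected on both arrays, and none of them differed by 1.5-fold between EMF+AuNPs and Control. The differences, EMF+AuNPs minus Control in normalized log2 signal, ran from -0.30 for Tlr8 to 0.32 for Myd88, with 5 genes above 0 and 4 below and a median of 0.07. A gene was called detected when the deposited detection p-value, which in bead array software ranks a probe against the negative-control beads of its own array, was under 0.01. Among all 8651 detected genes the median difference was 0.03, and 6.25% differed by at least 1.5-fold in either direction, so a count of 0 among 9 genes lies near the background. At 2-fold the background was 1.01%. The RNA is of whole cultures, so fewer cells of a type and less RNA per cell cannot be told apart.

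**Figure D1:**
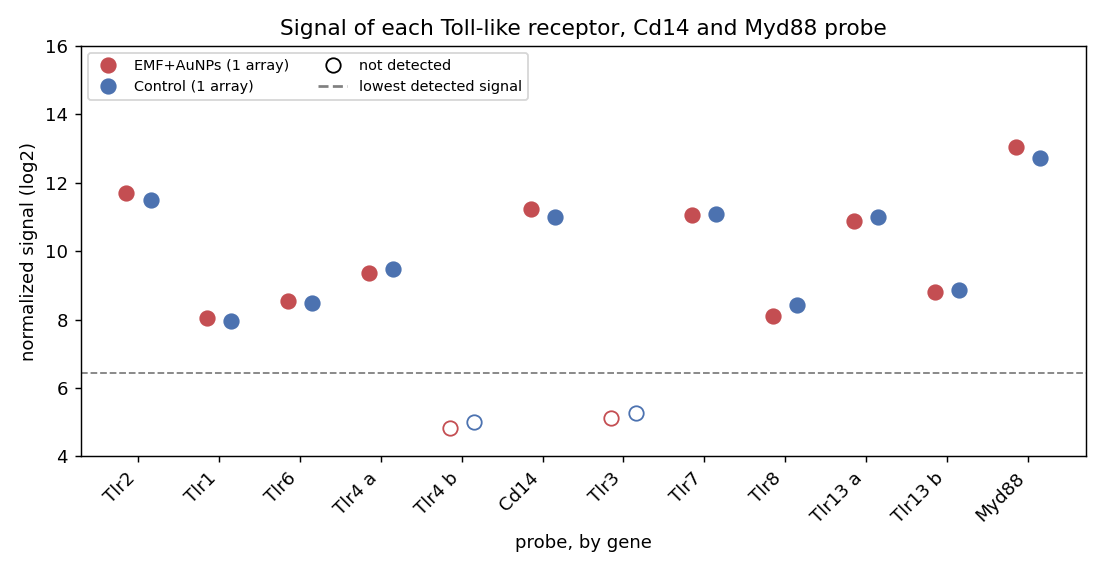
Normalized log2 signal of the 12 probes, in EMF+AuNPs (red) and Control (blue), 1 array each; a and b are a gene's brighter and dimmer probe. Open circles (Tlr3 and Tlr4 b) were not detected and lie below the dashed line of the lowest detected signal, 6.43 on the EMF+AuNPs array; levels of different probes cannot be set against each other.

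Tlr2 encodes the shared subunit of the lipopeptide receptors. Its probe had an intensity of 3378 in EMF+AuNPs and 3009 in Control, and its normalized signal was 11.69 and 11.49, a difference of 0.20 or 1.15-fold. The partner genes differed less. Tlr1, which pairs with TLR2 for triacylated lipopeptides, had intensities of 350.6 in EMF+AuNPs and 359.8 in Control and a normalized difference of 0.08. Tlr6, the partner for diacylated lipopeptides, had intensities of 459.3 and 469.1 in the same order and a difference of 0.07. For both partner genes the intensity was slightly lower in EMF+AuNPs while the normalized signal was slightly higher, so the direction came from the normalization. Tlr1 and Tlr6 are close paralogs, and whether a probe of one binds transcripts of the other was not tested.

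Tlr4 encodes the lipopolysaccharide receptor and is read by a pair of probes. The brighter one, ILMN_2752966, had intensities of 734.5 in EMF+AuNPs and 839.0 in Control and differed by -0.13. The other, ILMN_2690004, was not detected on either array, with intensities of 99.9 and 111.2 and detection p-values of 0.792 and 0.460. Cd14, whose product hands lipopolysaccharide to the TLR4 complex and also serves TLR2, had intensities of 2462 in EMF+AuNPs and 2153 in Control. Its normalized signals of 11.23 and 10.99 gave a difference of 0.24 or 1.18-fold. The receptor gene Tlr4 and its co-receptor gene Cd14 therefore lay on opposite sides of 0, each by a small amount. Of the 5 genes whose products act at the cell surface, 4 lay above 0 in normalized signal, as did 55.8% of all detected genes, and 2 (Tlr2 and Cd14) had a higher intensity in EMF+AuNPs.

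Tlr3, the receptor gene for double-stranded RNA, was not detected on either array. Its single probe had intensities of 119.5 in EMF+AuNPs and 126.9 in Control, with detection p-values of 0.294 and 0.201, and detection began at intensities of 181 and 187. The other genes of endosomal receptors were detected, and all 3 lay below 0. Tlr7 had intensities of 2214 in EMF+AuNPs and 2307 in Control and a difference of -0.02, and its sign turned to 0.01 after median centring. Tlr8 had intensities of 364.6 and 453.9, normalized signals of 8.12 and 8.41, and the lowest difference of the 9 genes, -0.30, or 1.23-fold lower in EMF+AuNPs. Tlr13 had 2 probes that went the same way. The brighter read 1969 in EMF+AuNPs and 2160 in Control and differed by -0.10, and the dimmer read 530.5 and 577.3 and differed by -0.04.

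Myd88, the adaptor gene, had the largest difference of the 9 genes. Its intensity was 8532 in EMF+AuNPs and 6891 in Control, and the normalized signals of 13.03 and 12.71 differed by 0.32, or 1.25-fold. Over detected genes of every brightness a difference this large was common, since 22.0% exceeded it in size. Genes as bright as Myd88 spread less, with a robust SD of 0.17 against 0.23 over all genes detected on both arrays. Myd88 was read by 1 probe, so no second probe could check it.

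**Figure D2:**
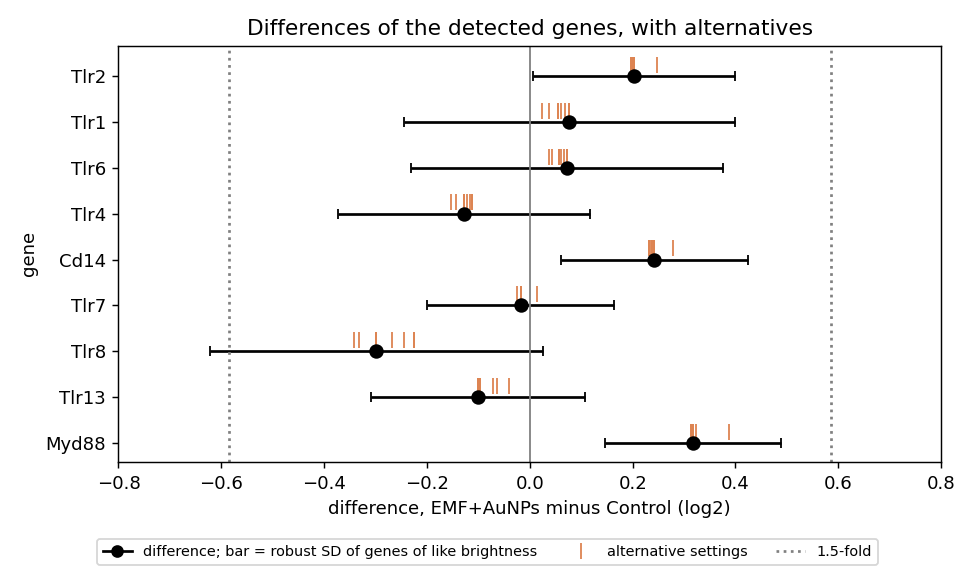
Difference in normalized log2 signal, EMF+AuNPs minus Control, of the 9 detected genes. Black bars are 1 robust SD of genes of like brightness, orange ticks are the alternative processing settings, and dotted lines mark 1.5-fold; all points and ticks lie within the dotted lines.

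In the absence of replicates, the spread of differences among genes of like brightness was used as a yardstick. This robust SD, which holds real change as well as noise, was between 0.17 and 0.32 for the 9 genes. Myd88 (0.32 against 0.17), Cd14 (0.24 against 0.18) and Tlr2 (0.20 against 0.20, slightly above it) exceeded their own value, and the other 6 did not. A share of 33.9% of all detected genes exceeds its own value in the same way, so 3 of 9 is near the background. The spread between probes of the same gene is another yardstick. It takes in dim probes and is not the error of the brightest probe, which gave each gene's value. For 2054 genes with at least 2 probes detected on both arrays, the gap between the highest and lowest difference of a gene's own probes had a median of 0.24 and a 90th percentile of 0.72.

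**Figure D3:**
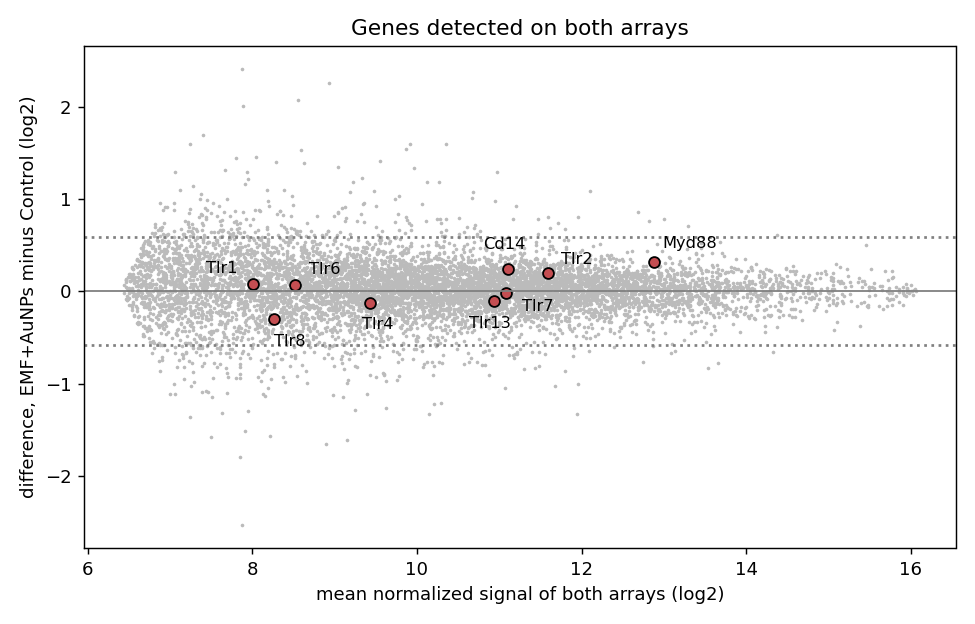
Difference (EMF+AuNPs minus Control, log2) against mean normalized signal (log2) for the 8199 genes detected on both arrays (grey). The 9 named genes (red) lie inside the dotted 1.5-fold lines, between -0.30 for Tlr8 and 0.32 for Myd88.

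The labelled cell type was checked against markers. Fibroblast markers were detected for 11 of 11 genes on the array, among them Col1a1 (normalized signal 15.70 in EMF+AuNPs and 15.85 in Control) and Thy1 (15.23 and 15.18). Markers of macrophages and monocytes, cells that carry most Toll-like receptors, were detected for 8 of 9. The one not detected was Itgam, with detection p-values of 0.011 in EMF+AuNPs and 0.158 in Control. The lysozyme gene Lyz2 (15.38 and 15.49), Fcer1g (15.25 and 14.95), Tyrobp (12.77 and 12.59) and Adgre1 (12.85 and 12.79) gave clear signals, whereas Ptprc, which all leukocytes carry, was above the detection limit for 1 dim probe on the Control array and for none on the other. Summed over their detected probes, macrophage markers had an intensity of 176550 in EMF+AuNPs and 168360 in Control, a ratio of 1.05. Fibroblast markers had a ratio of 0.927 and the Toll-like receptor, Cd14 and Myd88 probes a ratio of 1.09, which was 1.01 without the bright Myd88 probe. Macrophage markers had a median difference of 0.13, with 6 of 8 above 0 and none past 1.5-fold. Of other types, 0 of 5 dendritic cell markers, 1 of 5 neutrophil markers (Csf3r), 1 of 5 lymphocyte markers (Cd3e) and 2 of 5 endothelial markers (Tek and Vwf) were detected. The part of a change in macrophage content in the differences of the receptor genes was not tested.

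Other genes of the pathway were taken from 9 lists of 96 genes by role. Of these, 86 were on the array and 68 were detected. Of the 68, 13 were at least 1.5-fold higher in EMF+AuNPs and 0 were lower, where 3.34% of all detected genes were higher and 2.91% lower. However, 8 of the 68 were detected in EMF+AuNPs alone by the probe used, and such genes had to be higher there. Among the 60 with a measured value in each condition, 9 were past 1.5-fold higher and 0 lower, where the shares of all such genes were 3.06% and 2.82%. Without background correction the count over all 9 lists was 6 higher in place of 13. The count of higher genes among all detected genes fell as well in that setting, as given in the section on processing. The lists were chosen with earlier results of these data known, so these counts are a description. The genes past 1.5-fold lay in 4 lists: adaptors, transcription factors, negative regulators and induced targets.

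Genes of receptor partners and of receptor handling differed little. Of 5 co-receptor and ligand transfer genes, 3 were detected and none passed 1.5-fold. Ly96, whose product binds lipopolysaccharide on TLR4, had a normalized signal of 10.53 in EMF+AuNPs and 10.44 in Control (difference 0.08). Cd180, an atypical receptor related to TLR4, differed by 0.29. All 9 chaperone and receptor processing genes were detected, with differences between -0.42 and 0.11 and none past 1.5-fold. Unc93b1, which escorts the nucleic acid receptors to endosomes, differed by -0.17 (12.18 in EMF+AuNPs, 12.35 in Control), and Hsp90b1, the chaperone that folds Toll-like receptors, by 0.07. Neither of the other receptor genes on the array, Tlr11 and Tlr12, was detected, and Tlr5 and Tlr9 were not analysed here.

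Of the 4 detected adaptor genes, all lay above 0 and 2 were past 1.5-fold, with a median of 0.49. Of all detected genes, 55.8% lay above 0, 3.34% were at least 1.5-fold higher, and the median was 0.03. Ticam1, the adaptor of TLR3, had intensities of 305.1 in EMF+AuNPs and 234.9 in Control on its brighter probe, a difference of 0.74 or 1.67-fold. Its other probe read 167.6 and 187.5 and was detected in Control alone. The gap of -0.25 at that probe includes an EMF+AuNPs signal below the detection limit, so it is not a measured difference. Pik3ap1, which links Toll-like receptors to phosphoinositide 3-kinase, differed by 0.59. In Control the intensities of Ticam1 (234.9) and Pik3ap1 (202.1) were not far above the 187 at which detection began there. Without background correction Ticam1 differed by 0.47 and Pik3ap1 by 0.32, and neither passed 1.5-fold. Ticam2, the bridging adaptor between TLR4 and the Ticam1 product, differed by 0.38. Tirap, which bridges TLR2 and TLR4 to MyD88, had a difference of 0.30 by the brightest of its probes and of -0.02 by a second one.

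Kinases and ubiquitin ligases downstream of the adaptors stayed under 1.5-fold, with 14 of 14 genes on the array detected and differences between -0.28 and 0.30. Irak1, a kinase recruited by MyD88, differed by -0.01, and Traf6, the ubiquitin ligase that follows it, by 0.24, with its other probes at 0.37 and 0.20. Irak4 was not analysed here. Of 10 detected transcription factor genes, 1 passed 1.5-fold and was higher, as were 3.34% of all detected genes. Irf7, a factor of the interferon response, had intensities of 326.0 in EMF+AuNPs and 218.9 in Control. It differed by 1.05, or by 0.66 without background correction. Its Control intensity was not far above the 187 at which detection began there.

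Negative regulators held 2 genes past 1.5-fold among 10 detected, both higher, as were 3.34% of all detected genes. The list's median was -0.02. Nfkbiz, an inducible nuclear member of the inhibitor of NF-kappaB family, had intensities of 1506 in EMF+AuNPs and 965.1 in Control and differed by 0.76. Socs3, an inducible inhibitor of cytokine signalling, had intensities of 2070 and 1362 and differed by 0.70. Both kept a difference above 1.5-fold in every processing setting tried, between 0.70 and 0.78 for Nfkbiz and between 0.66 and 0.72 for Socs3.

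Genes that Toll-like receptor signals induce spanned differences from -0.23 to 2.26. Of 23 on the array, 15 were detected and 8 of these were at least 1.5-fold higher in EMF+AuNPs. However, 6 of the 15 were detected in EMF+AuNPs alone, and such genes enter only because they are higher there. Of the 9 detected on both arrays, 4 were past 1.5-fold and the median was 0.10. Among all genes detected on both arrays these were 3.06% and 0.03. The acute-phase gene Saa3 had a normalized signal of 10.06 in EMF+AuNPs and 7.80 in Control (4.79-fold), and the chemokine gene Ccl2 had 8.52 and 7.08 (2.72-fold). The chemokine gene Ccl5 differed by 0.96. In Control the intensities of Ccl2 and Ccl5 were 240.6 and 237.3, not far above the 187 at which detection began there. Il1b, the interleukin 1 beta gene, had intensities of 246.7 and 157.9, was detected in EMF+AuNPs alone and was at least 1.85-fold higher there. For such a bound the Control value was the probe's own signal there or, where larger, the lowest detected signal of that array, 6.40. The fourth gene on both arrays was Tnf, named after its values were seen, at 0.69. Its Control intensity of 196.3 was nearer still to that 187. Without background correction Tnf was under 1.5-fold at 0.38, the bound of Il1b was 0.48 and 3 genes of the list passed that fold. These were Saa3 at 1.86, Ccl2 at 0.99 and Ccl5 at 0.62, each a smaller difference than in the main setting. Of the 5 genes of the interleukin 1 receptor family on the array, a family whose signalling receptors use MyD88, 3 were detected. The receptor gene Il1r1 differed by 0.29. The other two are named here with their values known. By its brightest probe, the accessory receptor gene Il1rap was detected in EMF+AuNPs alone and was at least 1.38-fold higher there. Its probes disagreed. ILMN_2740465 was detected on both arrays and differed by 0.02, ILMN_1243228 was detected in EMF+AuNPs alone and ILMN_1233678 in Control alone. The decoy receptor gene Il1r2 was detected in EMF+AuNPs alone and was at least 1.22-fold higher there. With detection called at p under 0.05, 2 genes of this list passed 1.5-fold.

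**Figure D4:**
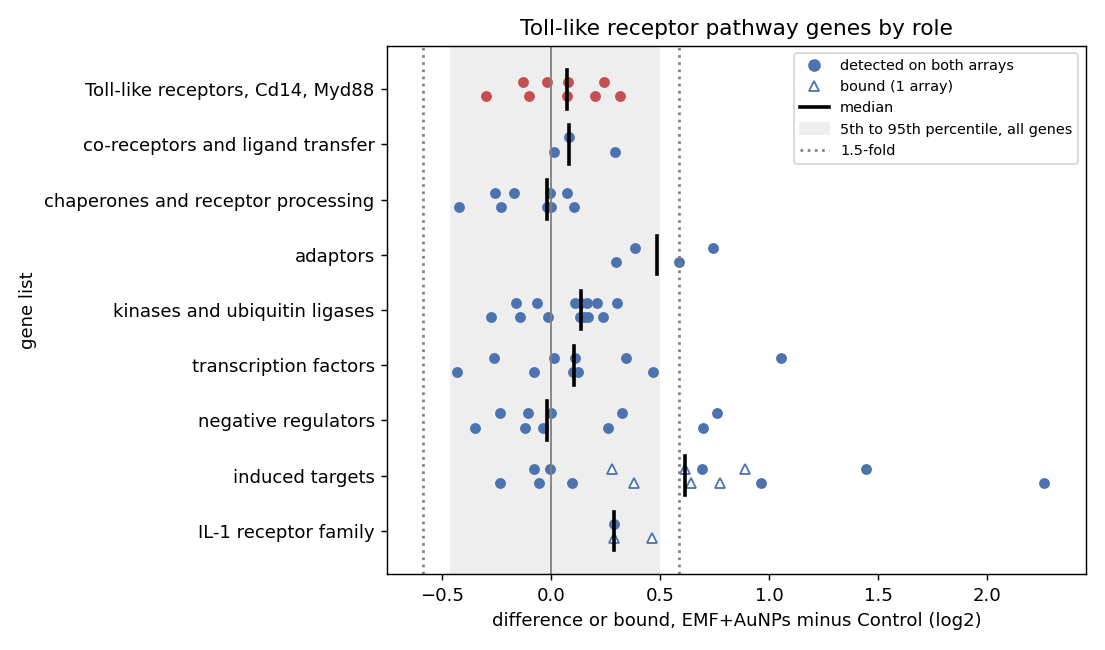
Differences or bounds (EMF+AuNPs minus Control, log2) of detected pathway genes by list; circles were detected on both arrays, triangles are bounds of genes detected on 1 array, and black bars are medians. The receptor, Cd14 and Myd88 genes (red) fall within the grey band, the 5th to 95th percentile of all detected genes (-0.46 to 0.49), while induced targets reach 2.26 for Saa3.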

How the data were processed

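Gene expression was measured on single-colour bead arrays, 1 for EMF+AuNPs and 1 for Control, grouped by sample title; the intensity columns are headed by the sample descriptions. The authors deposited a linear intensity for each probe, not normalized between arrays, with a detection p-value. Per the submitters' processing notes GenomeStudio 2011.1 was used, with no role stated. The authors also deposited log2 values, which equalled the quantile normalized log2 intensities to the last decimal. Medians were 162 (EMF+AuNPs) and 165 (Control), and 46.6% and 46.7% of probes were detected at p under 0.01.

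From the intensities, neqc of limma 3.58.1 (R 4.3.3, offset 16) removed background, with the negative-control level inferred from the detection p-values, and applied quantile normalization. These steps were tested on simulated arrays with changes of 2-fold and 4-fold in probes well above background. Differences as small as those of the members were not simulated. Each gene took its brightest probe detected on at least 1 array; 8199 genes were detected on both, 248 on EMF+AuNPs alone and 204 on Control alone. The robust SD, a median absolute deviation scaled by 1.4826, was taken in 20 brightness bins. Probe names came from the platform annotation (23978 probes with 1 gene, 0 with several, 1719 with none), with 23962 matched to RefSeq by Entrez number. Called means past 1.5-fold or 2-fold. Named genes are all 10 members and, per list, up to 4 per direction past 1.5-fold plus a set of receptor-proximal genes. Members and lists were chosen with earlier results of these data known. Alternatives covered background correction, normalization, the probe rule and the detection limit.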

Additional observations from a re-analysis of the deposited data

How the results depend on the processing

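Every detected receptor gene, Cd14 and Myd88 stayed under 1.5-fold in the main setting and in all 11 alternatives, and their median lay between 0.02 and 0.07. The alternatives are not all separate checks. The deposited values repeat the setting without background correction. The probe rules could move only Tlr13, the only one of the 9 with a second detected probe, and the other detection limits could move none of them. The sign changed for 1 of the 9, Tlr7. The number of detected members was 9 at each detection limit, and 8 when every probe of a gene had to be detected. Counts over all genes, which set the background, moved more. Past 1.5-fold, 289 genes were higher and 252 lower. The counts were 140 and 165 with normexp and no negative controls, 119 and 138 without background correction (also in the deposited log2 values), and 506 and 417 with no detection filter. With an offset of 50, 188 were higher, and by each gene's lowest probe 478 were lower. Past 2-fold, 45 were higher and 42 lower, against 27 and 21 with normexp, 24 and 16 without background correction and in the deposited values, and 96 and 64 with no detection filter. With an offset of 50, 26 were lower, by the lowest probe 103 were lower, and at a detection p under 0.05, 73 were higher. Over the 9 pathway lists, 13 genes were past 1.5-fold higher, against 6 with normexp, without background correction and in the deposited values. No paired analysis was possible because each condition has 1 array, which also leaves no replicate to leave out. Dim probes such as that of Tlr3 set no limit on a difference, since neither array measured them above background.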

Other observations

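Probes of Adgre1, a macrophage surface marker gene, disagreed, a pattern noticed after the values were seen. The probes ILMN_1216880 and ILMN_2847787 differed by 0.13 and 0.06 between EMF+AuNPs and Control. The third, ILMN_2756353, had an intensity of 650 in EMF+AuNPs and 1611 in Control and differed by -1.38, with a detection p-value of 0 on both arrays.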
